A study of Caenorhabditis elegans with 15 samples.

Results

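RNA recovered in a pull-down of the cap-binding protein IFE-1 was compared with total RNA of the same Caenorhabditis elegans strain. The comparison covers genes with at least 1 TPM in 3 or more of 6 libraries, 3 of recovered RNA and 3 of total RNA. TPM is a transcript abundance normalised to length, with the same sum in every library. The threshold left 11175 of the 46934 gene rows in the deposited table, while 22793 rows were at 0 in all 6 libraries. The strain, KX155, carries mKate::ife-1 on chromosome III and GFP::ife-3 on chromosome V, both tagged by CRISPR, so the total RNA came from worms with the same 2 tagged proteins. IFE-1 pull-down is the RNA recovered with mKate::IFE-1 on RFP trap beads, including any background of the beads or the tag. Total RNA was taken from KX155 lysate. Beside them stand 3 libraries each of IFE-3 pull-down (GFP::IFE-3 of KX155 on GFP trap beads), mKate::PH pull-down (strain LP307, tag inserted on chromosome II, RFP trap) and GFP::PH pull-down (strain LP306, tag inserted on chromosome II, GFP trap). All worms were grown for 3 days at 20 °C and processed whole. The labels call the replicates biological and give no age or sex.

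The eIF4E proteins hold the 5′ cap of an mRNA and bring it to the translation machinery. C. elegans has several paralogs of this protein. IFE-1 is known from the germ line, where it is found with P granules and is needed for normal sperm and oocyte formation, and it can hold both monomethylated caps and the trimethylated caps that trans-splicing gives to many worm mRNAs. IFE-3 is known to prefer monomethylated caps.

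The table names genes by WormBase identifiers, and the gene table used here, with 46926 genes, holds none of these. Gene symbols, classes and positions are therefore not given, and the tagged genes and tissue markers were not checked. Genes are described by their abundance, their size of change and the number in their identifier, and 4 are given by identifier.

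The members accounted for nearly all RNA measured, with 99.5 ± 0.121% of the TPM in IFE-1 pull-down, against 99.7 ± 0.0113% in total RNA (SD, n = 3 each). More members reached 1 TPM in IFE-1 pull-down, with 10929, 10634 and 10929 in replicates 1, 2 and 3, against 10189, 9785 and 10260 in total RNA. The threshold at 1 TPM took in more genes through IFE-1 pull-down. Of 755 genes just inside it, at 1 TPM in exactly 3 libraries, 246 passed in the 3 IFE-1 pull-down libraries alone and 5 in the 3 total RNA libraries alone, and their median level was 1.09 TPM. Just outside, 1094 genes with 2 such libraries had a median of 0.855 TPM. Over 3039 genes with a mean of at least 10 normalised TPM (TPM after a scaling of the libraries), the median SD between replicates was 0.17 on the log2 scale in IFE-1 pull-down, against 0.13 in total RNA. TPM keeps no sequencing depth, so the depth behind each value is unknown.

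A minority of genes was called different between IFE-1 pull-down and total RNA, with larger increases than decreases among the calls. Of 11175 genes, 533 (4.77%) were higher in IFE-1 pull-down and 759 (6.79%) lower, together 11.6%, at a limma p-value adjusted by the Benjamini-Hochberg method under 0.05. An unadjusted p under 0.05 was reached by 3127 genes. The higher genes had a median log2 fold change of 0.90, a ratio of 1.87, with quartiles of 0.64 and 1.37. The lower genes had a median of -0.56, a 1.47-fold lower level, with quartiles of -0.67 and -0.48. Increases of at least 4-fold were found in 69 genes, and 23 of them were at least 8-fold. Decreases of at least 4-fold were found in 11 genes, which all carry the same values in every library, as near-identical copies that share reads can. A value of 0 in every total RNA library was listed for 47 higher genes, and the median of the other higher genes was 0.83. The threshold at 1 TPM took in more genes through IFE-1 pull-down, so the larger increases describe the members only. Every IFE-1 pull-down library lay above every total RNA library in 13.5% of all genes and below in 21.1%, together 34.6%, and this held for each of the 1292 called genes.

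**Figure D1:**
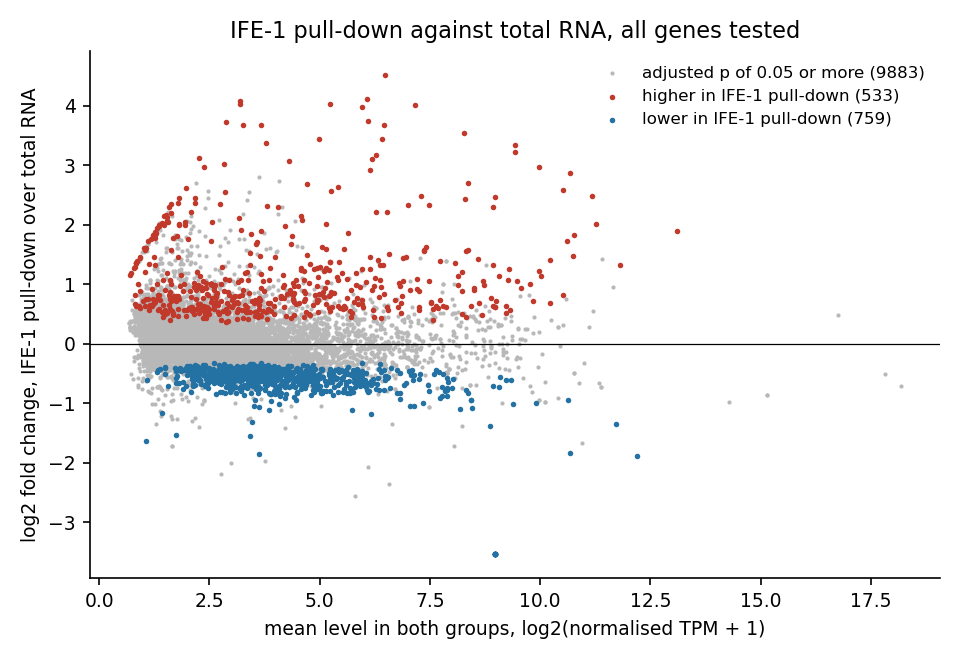
Log2 fold change of IFE-1 pull-down over total RNA (vertical axis) against the mean level in both groups as log2(normalised TPM + 1) (horizontal axis), 1 point per gene for 11175 genes, with called genes in red (533 higher) and blue (759 lower). The red points reach a log2 fold change of 4.52, while the blue points lie above -2, apart from 11 genes with identical values at -3.54.

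The direction of the calls depended on how libraries were scaled. Each library was divided by the median ratio of its genes to their geometric mean, by factors of 0.976 to 1.12 for IFE-1 pull-down and 0.796 to 0.915 for total RNA, so fold changes are relative to the median gene. With TPM as deposited, the median log2 fold change of all genes was 0.20 instead of -0.02, and 1224 genes were higher and 164 lower, which made 88.2% of calls higher instead of 41.3%. All 533 higher genes and 164 of the 759 lower ones kept their call in the same direction there. Leaving out IFE-1 pull-down replicate 1, 2 or 3 left 824, 786 or 783 calls, and leaving out total RNA replicate 1 or 2 left 561 or 663. The labels name the batch of IFE-1 pull-down as RFP pulldown and that of total RNA as lysate, so a batch effect cannot be told apart from the groups.

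The called genes were followed as sets through the libraries. The 533 higher genes held 11%, 7.69% and 11.4% of the TPM in IFE-1 pull-down replicates 1, 2 and 3, against 2.99%, 3.08% and 2.83% in total RNA. Replicate 2 was the lowest IFE-1 pull-down library and still more than 2-fold above total RNA. The same genes held 5.72%, 5.86% and 7.25% in mKate::PH pull-down, all above total RNA and all below IFE-1 pull-down. In IFE-3 pull-down they held 8.26 ± 0.496% and in GFP::PH pull-down 6.92 ± 1.88% (SD, n = 3 each). The IFE-3 pull-down libraries, at 7.86%, 8.10% and 8.81%, lay above IFE-1 pull-down replicate 2, as did GFP::PH pull-down replicate 3 at 8.77%. The 759 lower genes held 2.57%, 2.58% and 3.34% in IFE-1 pull-down, against 4.92%, 5.21% and 5.09% in total RNA. In mKate::PH pull-down they held 2.59%, 2.98% and 3.01%, a range that lay within that of IFE-1 pull-down. In IFE-3 pull-down they held 3.00 ± 0.353% and in GFP::PH pull-down 3.41 ± 0.500% (SD, n = 3 each). All pull-down libraries lay below total RNA. The sets were picked by this contrast, so their shares in IFE-1 pull-down and total RNA describe them and are no further support. The pick also favours a place between these 2 groups for libraries outside it, so that place is no support either. The share of the lower genes moved most where 1 of the 3 highest rows was called among them. That was the case with a pseudocount of 5, a filter at 5 TPM and no variance trend, where the lower genes held 28.1% in IFE-1 pull-down against 39.4% in total RNA, 34.5% against 48.8%, and 33.5% against 47.4%. When total RNA replicate 1 was left out, the lower genes called held 1.19% against 1.84% and the higher genes 6.49% against 1.52%. The higher genes held 6.97% against 1.69% without total RNA replicate 3, and 7.06% against 1.76% without IFE-1 pull-down replicate 3. Without total RNA replicate 2 the lower genes held 1.24% against 1.91%, without IFE-1 pull-down replicate 1 1.66% against 2.47%, and without its replicate 2 1.88% against 2.73%.

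**Figure D2:**
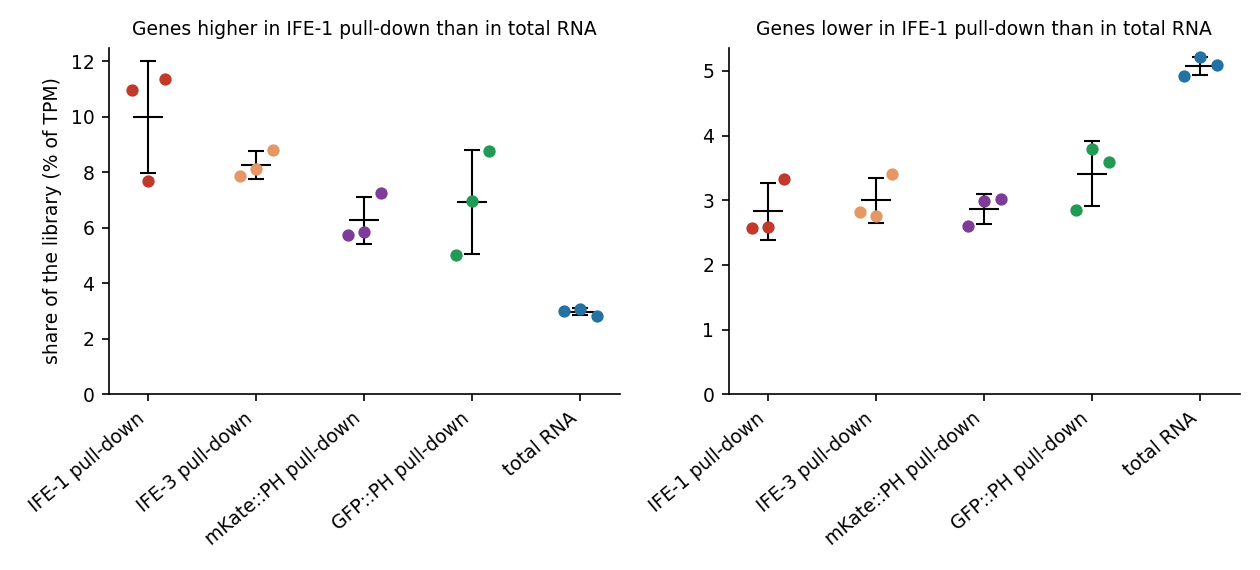
Share of each library's TPM (vertical axis, %) held by the 533 genes higher and the 759 genes lower in IFE-1 pull-down than in total RNA, 1 point per library, with the mean and SD of each group of 3. For the higher genes mKate::PH pull-down lies between IFE-1 pull-down and total RNA, a place that the pick of the set favours. For the lower genes it lies within the range of IFE-1 pull-down.

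Calls were unevenly spread over abundance, in bands chosen with the results known. Abundance was the mean over the 6 libraries compared, so the bands are not independent of the calls. Among 2437 genes with a mean under 2 normalised TPM, 3.12% were higher in IFE-1 pull-down and 0.410% lower. The threshold at 1 TPM favoured genes high in IFE-1 pull-down here, so this excess is no finding. Among 1851 genes between 10 and 30, the order was turned, with 5.24% higher and 15.3% lower. Among 417 genes between 100 and 1000, 17.7% were higher and 14.4% lower, and among the 49 genes over 1000 these shares were 30.6% and 8.16%. The median log2 fold change was 0.09 under 2 normalised TPM, -0.13 between 10 and 30, 0.03 between 100 and 1000 and 0.27 over 1000. With deposited TPM more genes were called higher than lower in each band, with 264 against 56 between 10 and 30, 160 against 34 between 30 and 100, and 20 against 2 over 1000.

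**Figure D3:**
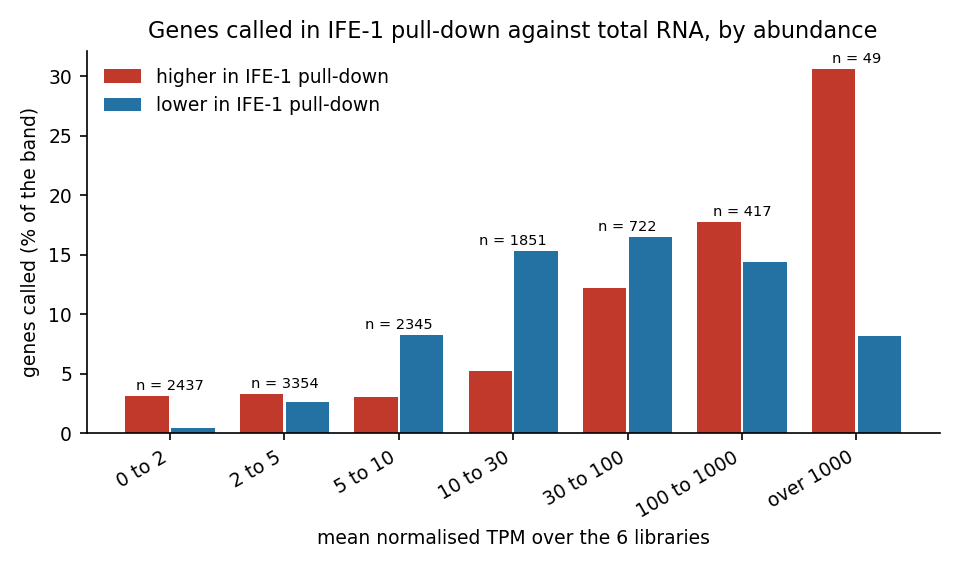
Share of genes called higher (red) and lower (blue) in IFE-1 pull-down than in total RNA (vertical axis, % of the genes in a band) by mean normalised TPM over the 6 libraries (horizontal axis), with the number of genes above each band. Lower calls exceed higher calls from 5 to 100 normalised TPM, though with deposited TPM each of these bands has more higher calls, and over 1000 there are 15 higher genes and 4 lower ones.

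The most abundant rows behaved differently from one another. The 3 highest rows held 57.9 ± 6.47% of the TPM in IFE-1 pull-down, against 63.5 ± 0.935% in total RNA (SD, n = 3 each), so their joint share varied mainly among the IFE-1 pull-down libraries. The highest row took 23.1%, 26% and 22.5% of IFE-1 pull-down, against 32.4%, 31% and 32.7% of total RNA. The groups did not overlap, but the row was not called on normalised values (log2 fold change -0.72 ± 0.27 SE, limma adjusted p = 0.126). The third row took 16.6%, 14.7% and 9.99% in IFE-1 pull-down, against 7.26%, 8.33% and 8.20% in total RNA. All IFE-1 pull-down libraries were above total RNA, though replicate 3 was close to it, and the row was not called (log2 fold change 0.48 ± 0.31 SE, limma adjusted p = 0.365). Of the 30 rows with the highest mean TPM, 9 were called higher and 2 lower.

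A few called rows among these 30 were chosen for description after their values were seen. The seventh row took 1.81%, 0.961% and 1.67% of the TPM in IFE-1 pull-down, against 0.284%, 0.397% and 0.273% in total RNA. Every IFE-1 pull-down library was more than 2-fold above every total RNA library (log2 fold change 1.90 ± 0.27 SE, limma adjusted p = 0.00479). Its share in mKate::PH pull-down was 0.945%, 0.779% and 0.798%, with the highest just below the lowest IFE-1 pull-down library. The row at rank 29 took 0.362%, 0.201% and 0.25% in IFE-1 pull-down, against 0.0333%, 0.0389% and 0.0355% in total RNA. It was the row of the 30 with the lowest adjusted p (log2 fold change 2.58 ± 0.22 SE, limma adjusted p = 0.00113). Here mKate::PH pull-down, with 0.267%, 0.222% and 0.248%, lay within the range of IFE-1 pull-down. The row at rank 11 was lower, with 0.173%, 0.186% and 0.248% in IFE-1 pull-down, against 0.416%, 0.425% and 0.411% in total RNA. Its total RNA libraries lay close together and well above the others (log2 fold change -1.35 ± 0.17 SE, limma adjusted p = 0.00327). The mKate::PH pull-down held 0.104%, 0.177% and 0.123%. In IFE-3 pull-down the seventh row took 1.13%, 1.29% and 1.21%, and the row at rank 29 took 0.252%, 0.216% and 0.189%. The row at rank 11 took 0.158%, 0.168% and 0.190% there. In each of these rows IFE-3 pull-down lay on the same side of total RNA as IFE-1 pull-down.

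The number within the identifier separated the calls as well. What kind of gene a number marks could not be looked up in the gene table used. The bands used here were chosen with the results known and carry no test. Among the 2865 genes numbered below 7000, 94 (3.28%) were higher in IFE-1 pull-down and 295 (10.3%) lower. Between 7000 and 23000 there were 6837 genes, with 262 (3.83%) higher and 437 (6.39%) lower. From 23000 upwards there were 1473 genes, with 177 (12%) higher and 27 (1.83%) lower. With identical genes taken once, the calls from 23000 were 166 higher and 17 lower. Medians of the log2 fold change in these bands were -0.09, -0.03 and 0.35, against -0.02 for all genes. With deposited TPM they were 0.14, 0.18 and 0.54, against 0.20 for all genes, so the band from 23000 stayed above the median gene while the other bands turned positive. The median of the band from 23000 was 0.30 to 0.39 with 1 library left out, 0.57 with a pseudocount of 0.1, 0.15 with a pseudocount of 5 and 0.13 without a filter on low values. Rows numbered from 23000 were rarely members, with 5.46% of 26959, against 54.5% of the rows below 7000.

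Genes numbered from 23000 were less abundant, with a median of 2.71 normalised TPM, against 7.02 below 7000, and 64 of the 66 members that total RNA lists at 0 in every library were among them. The threshold at 1 TPM favours such genes where they are high in IFE-1 pull-down, so the band's counts and median are a description of the members only. Abundance is the mean over the 6 libraries compared, so a gene higher in IFE-1 pull-down moves to a higher level. A match on abundance is thus not independent of the calls, and the following counts are a description only. Over 30 normalised TPM, 54 of 160 genes from 23000 were higher and 17 lower. Below 7000, 51 of 554 genes were higher and 99 lower at that level. Rows with identical values count separately in these counts. With identical genes taken once, lower calls over 30 normalised TPM in all bands of numbers were 174 instead of 183. Lower calls from 23000 at any abundance were then 17 instead of 27. Between 5 and 30 normalised TPM, 39 of 324 genes from 23000 were higher and 4 lower, while 29 of 1213 genes below 7000 were higher and 172 lower. With deposited TPM both bands had more higher calls. Over 30 normalised TPM, 69 genes from 23000 were then higher and 12 lower, against 91 and 32 below 7000, and the median log2 fold changes were 0.78 and 0.13.

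**Figure D4:**
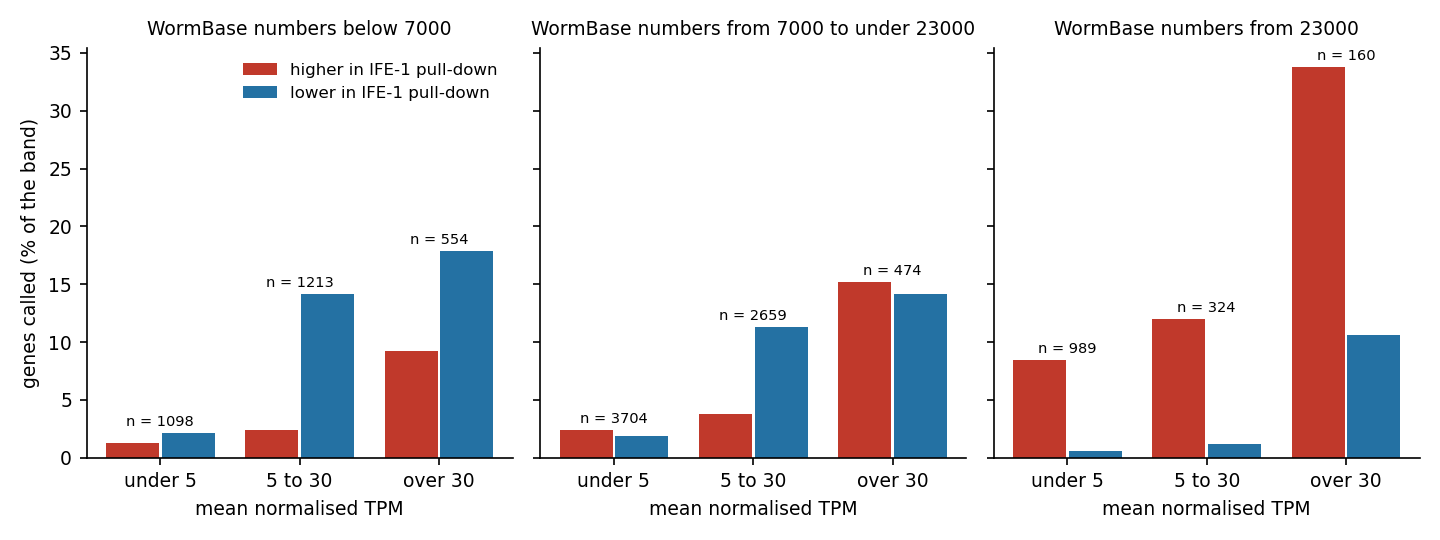
Share of genes called higher (red) and lower (blue) in IFE-1 pull-down than in total RNA (vertical axis, % of the genes in a band) by mean normalised TPM (horizontal axis) for 3 bands of WormBase numbers. At each level of abundance shown, numbers from 23000 have more higher than lower calls and numbers below 7000 more lower than higher calls. With deposited TPM, however, the band below 7000 has 241 higher and 68 lower. Rows with identical values count separately. The levels use the libraries compared, so they are not independent of the calls.

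Outside the 3 highest rows, genes numbered from 23000 held 19.7% to 30.3% of the remaining TPM in IFE-1 pull-down, against 15.6% to 17.6% in total RNA. Genes numbered below 7000 held 47.7 ± 4.43% in IFE-1 pull-down, against 56.6 ± 0.746% in total RNA (SD, n = 3 each). The shares of mKate::PH pull-down were 22.2 ± 1.15% from 23000 and 41.8 ± 6.50% below 7000 (SD, n = 3), on the same side of total RNA as IFE-1 pull-down in both bands. The other groups did not follow in both. GFP::PH pull-down held 15.8 ± 2.11% from 23000, close to total RNA, and 52.0 ± 4.94% below 7000, and IFE-3 pull-down held 18.5 ± 0.966% from 23000 and 57.3 ± 1.33% below 7000 (SD, n = 3 each). The median log2 fold change of IFE-1 pull-down over mKate::PH pull-down was 0.22 from 23000 and 0.01 below 7000. Over IFE-3 pull-down the medians were 0.19 and 0.02. The threshold at 1 TPM used IFE-1 pull-down and total RNA only. It favours genes high in IFE-1 pull-down, so these medians are a description of the members only.

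The 4 genes given by identifier had the largest fold changes in each direction, 2 higher and 2 lower. They were chosen among called genes of at least 10 normalised TPM, with identical copies counted once. The pick used IFE-1 pull-down and total RNA, and comparisons with other groups reuse the same IFE-1 pull-down libraries. It favours IFE-1 pull-down above other groups for higher genes and below them for lower genes. Those comparisons are therefore a description only. The replicate block was chosen on these same data. WBGene00045160 was higher, with 288, 159 and 54.3 normalised TPM in IFE-1 pull-down replicates 1, 2 and 3, against 0, 11.1 and 16.3 in total RNA. The groups did not overlap, though the IFE-1 pull-down libraries spread more than 5-fold among themselves (log2 fold change over total RNA 4.52 ± 1.00 SE, limma adjusted p = 0.0226). The log2 fold change was 3.24 without total RNA replicate 1 and 5.30 without total RNA replicate 3, and 5.17 without IFE-1 pull-down replicate 3. With pseudocounts of 0.1 and 5 the gene had log2 fold changes of 5.68 and 3.56. It lost its call at 0.1 (limma adjusted p = 0.0605). In mKate::PH pull-down it was at 77.0 in replicate 1 and listed at 0 in replicates 2 and 3, so 1 of these libraries lay inside the range of IFE-1 pull-down. Against mKate::PH pull-down its log2 fold change was 5.0 ± 1.7 SE (adjusted p by limma 0.118), and 0.0408 with the replicate number as a block.

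WBGene00044974 was higher too, with 153, 69.9 and 137 normalised TPM in IFE-1 pull-down, against 7.19, 0 and 34.6 in total RNA. Replicate 2 was the lowest library in both groups, and the groups did not overlap (log2 fold change over total RNA 4.11 ± 1.04 SE, limma adjusted p = 0.0370). The log2 fold change was 2.74 without total RNA replicate 2 and 5.33 without total RNA replicate 3. With pseudocounts of 0.1 and 5 the gene had log2 fold changes of 5.27 and 3.15. It lost its call at 0.1 (limma adjusted p = 0.0839). Its levels in mKate::PH pull-down, 63.6, 27.1 and 47.2, were all below the lowest IFE-1 pull-down library. Against mKate::PH pull-down the log2 fold change was 1.37 ± 0.40 SE, with an adjusted p by limma of 0.0973 and, blocked, of 0.0182. The pick of the gene favours that direction, so this is no further support. Levels in IFE-3 pull-down were 226, 284 and 190 for WBGene00045160 and 126, 80.6 and 109 for WBGene00044974. Against IFE-3 pull-down neither passed, with log2 fold changes of -0.76 ± 1.00 SE and 0.13 ± 1.04 SE (adjusted p by limma 0.746 and 0.960).

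WBGene00014621 showed the largest decrease and belongs to the 11 identifiers with identical values, so its own level is uncertain. It stood at 44.6, 49.7 and 175 normalised TPM in IFE-1 pull-down, against 804, 1341 and 589 in total RNA. Replicate 3 of IFE-1 pull-down was the highest of its group and more than 3-fold below the lowest total RNA library (log2 fold change over total RNA -3.54 ± 0.80 SE, limma adjusted p = 0.0244). Without that library the log2 fold change was -4.16. Still lower were the levels in mKate::PH pull-down, 15.7, 20.8 and 63.6, with a log2 fold change of IFE-1 pull-down over it of 1.37 ± 0.67 SE and an adjusted p by limma of 0.215, or 0.0159 with the block. IFE-3 pull-down, at 17.6, 74.5 and 175, was below total RNA too. The log2 fold change of IFE-1 pull-down over IFE-3 pull-down was 0.24 ± 0.80 SE (adjusted p by limma 0.904).

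WBGene00045168 followed, with 1240, 1532 and 3615 normalised TPM in IFE-1 pull-down, against 5157, 7365 and 9190 in total RNA. Replicate 3 was the highest library in both groups, and the groups did not overlap (log2 fold change over total RNA -1.89 ± 0.44 SE, limma adjusted p = 0.0256). In mKate::PH pull-down it was at 1516, 1527 and 2306, within the range of IFE-1 pull-down (log2 fold change 0.12 ± 0.46 SE, adjusted p by limma 0.874). IFE-3 pull-down, at 1309, 1530 and 2737, lay within that range too (log2 fold change 0.11 ± 0.44 SE, adjusted p by limma 0.919). Of 17 alternative fits against total RNA, the call was lost in 6 for WBGene00045160, 7 for WBGene00044974, 5 for WBGene00014621 and 8 for WBGene00045168, and no sign turned.

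**Figure D5:**
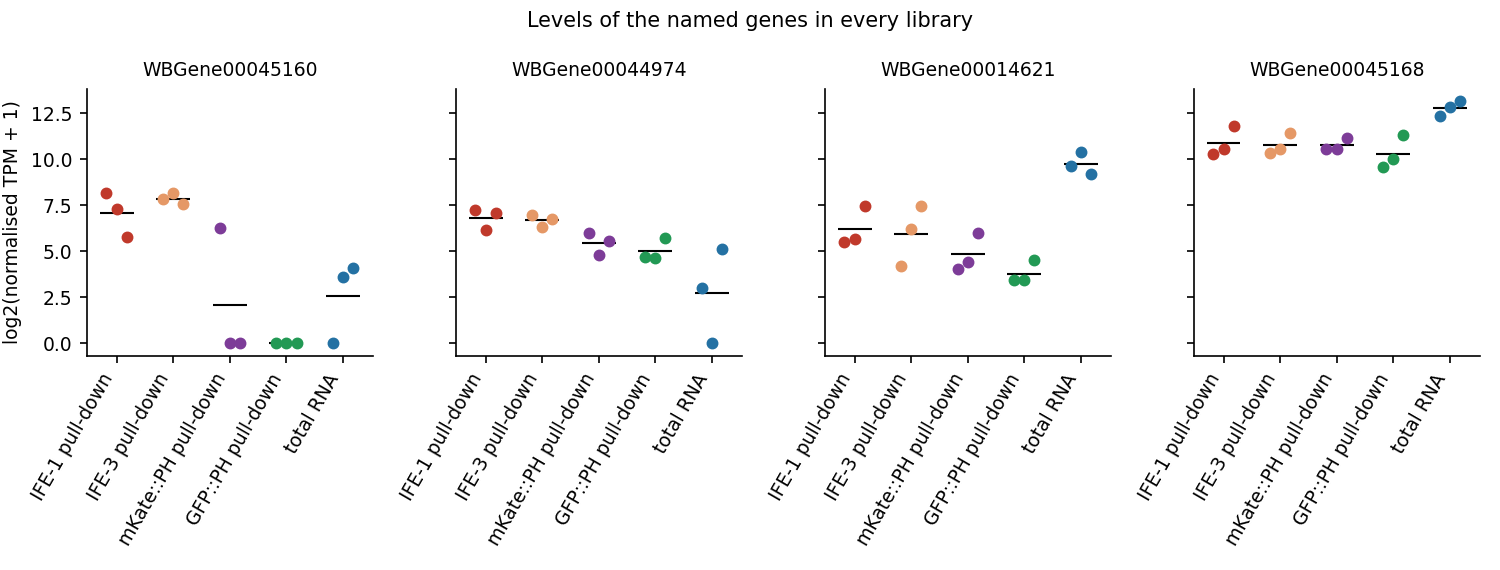
Levels of WBGene00045160, WBGene00044974, WBGene00014621 and WBGene00045168 as log2(normalised TPM + 1), 1 point per library with replicates 1 to 3 from left to right, and the mean of each group as a line. IFE-1 pull-down lies above total RNA in the first pair of genes and below it in the second, and 2 libraries of mKate::PH pull-down have WBGene00045160 at 0.

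The background of the RFP trap was also tested gene by gene. Against mKate::PH pull-down, limma called 148 of the 11175 genes (1.32%) higher in IFE-1 pull-down and 52 (0.465%) lower, together 1.79%. The fit with a replicate block called 1265 (11.3%) higher and 711 (6.36%) lower, together 17.7%. Without a block the counts changed strongly with 1 library left out, which also leaves less information on the spread. The counts were 0 and 0 without IFE-1 pull-down replicate 1, 5 and 1 without replicate 2, and 0 and 0 without replicate 3. They were 0 and 0 without mKate::PH pull-down replicate 1, 3 and 1 without replicate 2, and 1093 and 601 without replicate 3. Where limma called 0 genes, the number with an unadjusted p under 0.05 was 2233 to 2731. LP307 and KX155 differ in more than the tag. TPM does not record how much RNA the beads held, and the design text says that the submitters set the tag-only libraries aside for their poor representation of mRNA.

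IFE-1 pull-down was set against IFE-3 pull-down in the fit that also held total RNA. Limma called 19 of the 11175 genes (0.170%) higher in IFE-1 pull-down and 177 (1.58%) lower, together 1.75%. The fit with a replicate block called 51 (0.456%) higher and 533 (4.77%) lower, together 5.23%. Of the 19 higher genes 15 were numbered from 23000, as were 4 of the 177 lower ones and 1473 of all 11175. The threshold at 1 TPM favoured genes high in IFE-1 pull-down and did not use IFE-3 pull-down, so these counts only describe the members. With only the 6 pull-down libraries in the fit, 1 gene was higher and 3 were lower. Leaving out IFE-1 pull-down replicate 1 gave counts of 1 and 7, leaving out replicate 2 gave 2 and 3, and leaving out replicate 3 gave 3 and 35. Leaving out IFE-3 pull-down replicate 1 gave 3 and 6, leaving out replicate 2 gave 1 and 5, and leaving out replicate 3 gave 60 and 863.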

How the data were processed

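The authors deposited 1 table of TPM values per gene for 15 libraries. Per the submitters' processing notes, the tools were kallisto 0.48.0, DESeq2 1.34.0 and R 4.4.1 and the genome build was WBcel235, with no role or order given. No source used here names the transcript annotation or read filters. Per the labels' protocols the libraries were rRNA-depleted and not directional, so reads of a gene and its antisense partner cannot be told apart.

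Each library was divided by the median ratio to the geometric mean of the 9 KX155 libraries, over 15488 genes above 0 in all of them. Values on this scale are called normalised TPM. Genes that reached 1 TPM in 3 or more of the 6 libraries of IFE-1 pull-down and total RNA were tested on log2(normalised TPM + 1) with limma 3.58.1 in R 4.3.3 (lmFit, eBayes with trend, two-sided, Benjamini-Hochberg over all 11175 genes). Folds of low genes come out too small on this scale. The 9 KX155 libraries shared 1 fit, and mKate::PH pull-down was compared in a fit of 6. The script was tested on simulated data. No count-based test was run, since TPM holds no counts.

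Same-numbered libraries deviated together between IFE-1 pull-down and IFE-3 pull-down (r = 0.234, 0.146 and 0.445 across genes) and between IFE-1 pull-down and mKate::PH pull-down (0.234, 0.184 and 0.433). Between libraries of different numbers r ran from -0.340 to 0.152 with IFE-3 pull-down and from -0.331 to 0.169 with mKate::PH pull-down. IFE-1 pull-down replicate 2 was as close to IFE-3 pull-down replicate 1 (0.152) as to its replicate 2 (0.146). The pairing is therefore clear only for replicate 3. Numbers were treated as pairs in the blocked fits of these comparisons, on the data and not on the labels. With total RNA the correlations were 0.0338, 0.0794 and 0.152, and no pairing was assumed in the main fit. The blocked fit against IFE-3 pull-down also held total RNA, so there its libraries were paired by number too. A blocked fit against total RNA was run only as an alternative.

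The named genes are the 2 higher and the 2 lower with the largest absolute log2 fold change among called genes whose groups did not overlap and whose mean was at least 10 normalised TPM in the higher group. Rows with identical values counted once. Among the members 166 genes in 69 sets had identical values. The parts of the rule and the gene lists that need symbols or classes could not be applied. The members, lists and tests were chosen with earlier results of these data known. Alternatives changed the scaling, the libraries in the fit, the pseudocount, the filter, the variance trend, library weights, the replicate block and the replicates.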

Additional observations from a re-analysis of the deposited data

How the results depend on the processing

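For IFE-1 pull-down against total RNA, the counts of 533 higher and 759 lower genes stayed within 1.5 times with pseudocounts of 0.1 and 5, a filter at 5 TPM, no variance trend, identical genes taken once and only the 6 libraries compared in the fit. They were 1224 and 164 with TPM as deposited, 123 and 133 with all 15 libraries in the fit, 841 and 1189 with library weights, and 860 and 1272 with a replicate block, while higher calls were 336 without a filter. With 1 library left out they were 271 to 380 higher and 290 to 572 lower. Against IFE-3 pull-down, the counts of 19 and 177 became 1 and 3 with only the RIP libraries compared, 7 and 65 with all 15 libraries, 747 and 1677 with library weights and 51 and 533 with a replicate block, and the 19 became 4 with a pseudocount of 0.1. With 1 library left out they were 1 to 60 and 3 to 863. Against mKate::PH pull-down, the counts of 148 and 52 became 23 and 16 with TPM as deposited, 43 and 11 with a pseudocount of 0.1, 1948 and 1612 with library weights and 1265 and 711 with a replicate block, and the 52 became 30 with a pseudocount of 5. With 1 library left out they were 0 to 1093 and 0 to 601, and 2089 to 4196 genes had an unadjusted p under 0.05 in limma. Library weights did not converge in the fit of 9 libraries. The 4 named genes kept their sign. With TPM as deposited the calls turned to more higher than lower, as they did, with 345 higher and 318 lower, without total RNA replicate 2. Band medians also changed sign with TPM as deposited, to 0.14 for numbers below 7000, 0.18 from 7000, 0.14 from 5 to 30 normalised TPM and 0.24 over 30. Without a filter the median from 7000 was 0.01 instead of -0.03, and over 30 normalised TPM it was 0.01 instead of -0.05 without IFE-1 pull-down replicate 1. The cause of these changes was not tested. Of 102 recomputed medians of bands 85 stayed within the spread between replicates, of 204 counts in bands 107 stayed within 1.5 times, and of 68 shares of TPM 18 stayed within the spread. The rescaling over protein-coding genes and the tests of gene lists were not run, since classes and symbols are not given. Depth is unknown, so its limit cannot be stated.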

Other observations

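Genes with consecutive WormBase numbers were often called in the same direction in IFE-1 pull-down against total RNA. Of 254 higher genes whose next number was also a member, 50 (19.7%) were followed by another higher gene, against 4.77% of all genes. Of 525 such lower genes, 103 (19.6%) were followed by another lower gene, against 6.79% of all genes. Few of these neighbours had identical values in every library: 43 of the 50 and 95 of the 103 pairs differed. Neighbouring numbers mostly fall in the same band of numbers, and the share of calls differs between bands. Higher genes made up 12% from 23000 and 3.28% below 7000, and lower genes 1.83% and 10.3%. The share over all genes is therefore not a like comparison, and shares within bands were not computed. The longest run of higher genes had 6 members, all with different values, and log2 fold changes from 1.21 to 3.11. The longest run of lower genes had 9 members, all with the values of WBGene00014621. Whether such neighbours share reads was not tested.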
